A study of Mus musculus with 30 samples.

Results

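Collagen and laminin genes were followed in mouse hypothalamus on 30 arrays, each taken as 1 mouse. The members were all non-control probes whose gene name read Col, digits, a, digits, or began with Lama, Lamb or Lamc and a digit. This gave 101 probes of 52 gene names, 41 collagen and 11 laminin, out of 41174 probes on the array. A further 4 probes matched the start of the rule but belonged to Col4a3bp, which encodes a ceramide transfer protein, and were left out. Col6a3 was named only in the probe description and was no member by its gene name.

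The mice were on a C57BL/6 background. The Per3 4/4 line and the Per3 5/5 line were homozygous knock-ins in which an exon of mouse Per3 was replaced by the human PER3 exon with 4 or 5 copies of a coding tandem repeat. WT mice carried the mouse exon and came from the same conditional lines after crossing to a ubiquitous Cre strain, and no experimental mouse carried Cre. The mice were described as young adult males, and all received cycles of 3.5 h of light and 3.5 h of dark, with brains taken in light phase 17. The arrays fell into 2 runs of different scanner output. Run 1 held 7 Per3 5/5 and 7 WT arrays, and run 2 held 8 Per3 4/4 and 8 WT arrays. The methods give 8 mice per genotype, yet there are 15 WT arrays. The labels used here name no animal, so whether a WT mouse was used in both runs cannot be told. The study asked how the human repeat affects gene expression under such a light schedule, so each knock-in line was compared with the WT arrays of its own run, and levels were not compared across runs. Array numbers below (R1, R2 and so on) are those of the labels, with WT R1 to R7 in run 1 and WT R8 to R15 in run 2.

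Collagens are triple-helical proteins built from chains in which glycine recurs at a fixed step of residues. Fibrillar collagens form cross-linked fibres. Type IV collagen and the laminins, which are trimers of an alpha, a beta and a gamma chain, form the sheets of the basement membrane. In the brain, fibrillar collagens are known chiefly from fibroblasts of the meninges and of larger vessels, while basement membrane lies around vessels and under the pia.

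The glycine pattern could be read directly in 3 member probes. Glycine is encoded by GGN, so a probe inside the triple helix holds GGN once every 9 bases. The following probe sequences, copied from the array annotation, are shown because they carry this signature over their whole length; capitals mark the glycine codons.
Col5a1, mm9 chr2:27842243-27844666, plus strand: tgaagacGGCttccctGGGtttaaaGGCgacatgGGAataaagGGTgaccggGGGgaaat
Col5a3, mm9 chr9:20590066-20590795, minus strand: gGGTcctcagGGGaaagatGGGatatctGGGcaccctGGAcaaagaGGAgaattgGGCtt
Col11a2, mm9 chr17:34189287-34189453, plus strand: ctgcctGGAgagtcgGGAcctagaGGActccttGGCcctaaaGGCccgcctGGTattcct
Each of the 3 alignments was longer than the 60 bases of its probe, with 2424, 730 and 167 bases from end to end, so each crossed a gap in the genome. No other tested probe on the array had the pattern, which was thus held by 3 of 29947 probes (0.01%). Across arrays these probes varied almost independently of the other probe of the same gene, with Pearson correlations of -0.05 for Col5a1, 0.12 for Col5a3 and 0.06 for Col11a2.

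Levels are given as log2 intensity minus the 75th percentile of the array, so 0 is the level of the 75th percentile. Only probes that stood well above background on no fewer arrays than they missed, in 1 or more genotypes, were tested. This left 74 member probes of 47 genes, 36 collagen and all 11 laminin, among 29947 tested probes. The other 27 member probes, among them every probe of Col10a1, Col17a1, Col28a1, Col4a3 and Col6a6, were too dim and have no test. Of the member probes, 50 were well above background on all 30 arrays. Because tissue was measured in bulk, fewer cells of a type and less RNA per cell cannot be told apart in any value below.

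Some arrays stood apart. Over all probes, 58.6 to 74.6% of spots on an array were well above background, and the dimmest arrays were Per3 4/4 R5 and WT R15. Per3 5/5 R3, R5 and R6 deviated together from the probe medians of run 1 (Pearson 0.61 to 0.65 over all tested probes, against at most 0.48 for any other pair). The Y-linked gene Ddx3y was at -8.51 and -8.09 on Per3 4/4 R6 and R7, although the mice were described as male, and at 1.01 or more on the other Per3 4/4 arrays. WT R14 had anterior pituitary markers at a mean of 4.46, against a median of -2.42 in its group. WT R10 had hypothalamic neuropeptide and neuronal markers at -1.16, against a group median of 2.32. The next lowest array of its group was WT R8, with a deviation of -0.92 from the group mean, where WT R10 had -2.93. In the other groups that list lay between 1.06 and 2.85, above the 75th percentile as the tissue label would have it.

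No collagen or laminin probe passed limma's test between Per3 5/5 and WT mice. After correction, 0 of 74 member probes had an adjusted p under 0.05, beside 0% of all probes, and the lowest adjusted p of a member was 0.796. The rank product, the other criterion of the methods, called 2 member probes, where it called 1.14% of all probes. They were 1 Col24a1 probe and 1 of 4 Lama4 probes, both lower. At an unadjusted p under 0.05 there were 2 member probes, Lama5 and Col5a3, where 6.17% of all probes passed. No member had groups that did not overlap (0.174% of all probes did). The difference was below 0 for 50 of the 74, where 54.5% of all probes were lower, and the median was -0.06 for members and -0.02 for all probes. Without Per3 5/5 R3, R5 and R6 the members' median turned to 0.03 and 20 of the 74 differences changed sign. The median standard error of a member was 0.23.

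Between Per3 4/4 and WT mice 0 of 74 member probes passed in limma, beside 0.0134% of all probes, and the lowest adjusted p was 1. The rank product called 0 members and 0.154% of all probes. At an unadjusted p under 0.05 there were 2 member probes, both of Col8a1, where 1.73% of all probes passed. None had groups that did not overlap (0.0134% of all probes). The difference was below 0 for 45 of 74 member probes and for 48.3% of all probes, with medians of -0.02 and 0.01. The effect in Per3 5/5 minus that in Per3 4/4 was tested directly, and again 0 of 74 member probes passed, beside 0% of all probes; 1 member, Lama5, had an unadjusted p under 0.05 (2.98% of all probes).

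**Figure D1:**
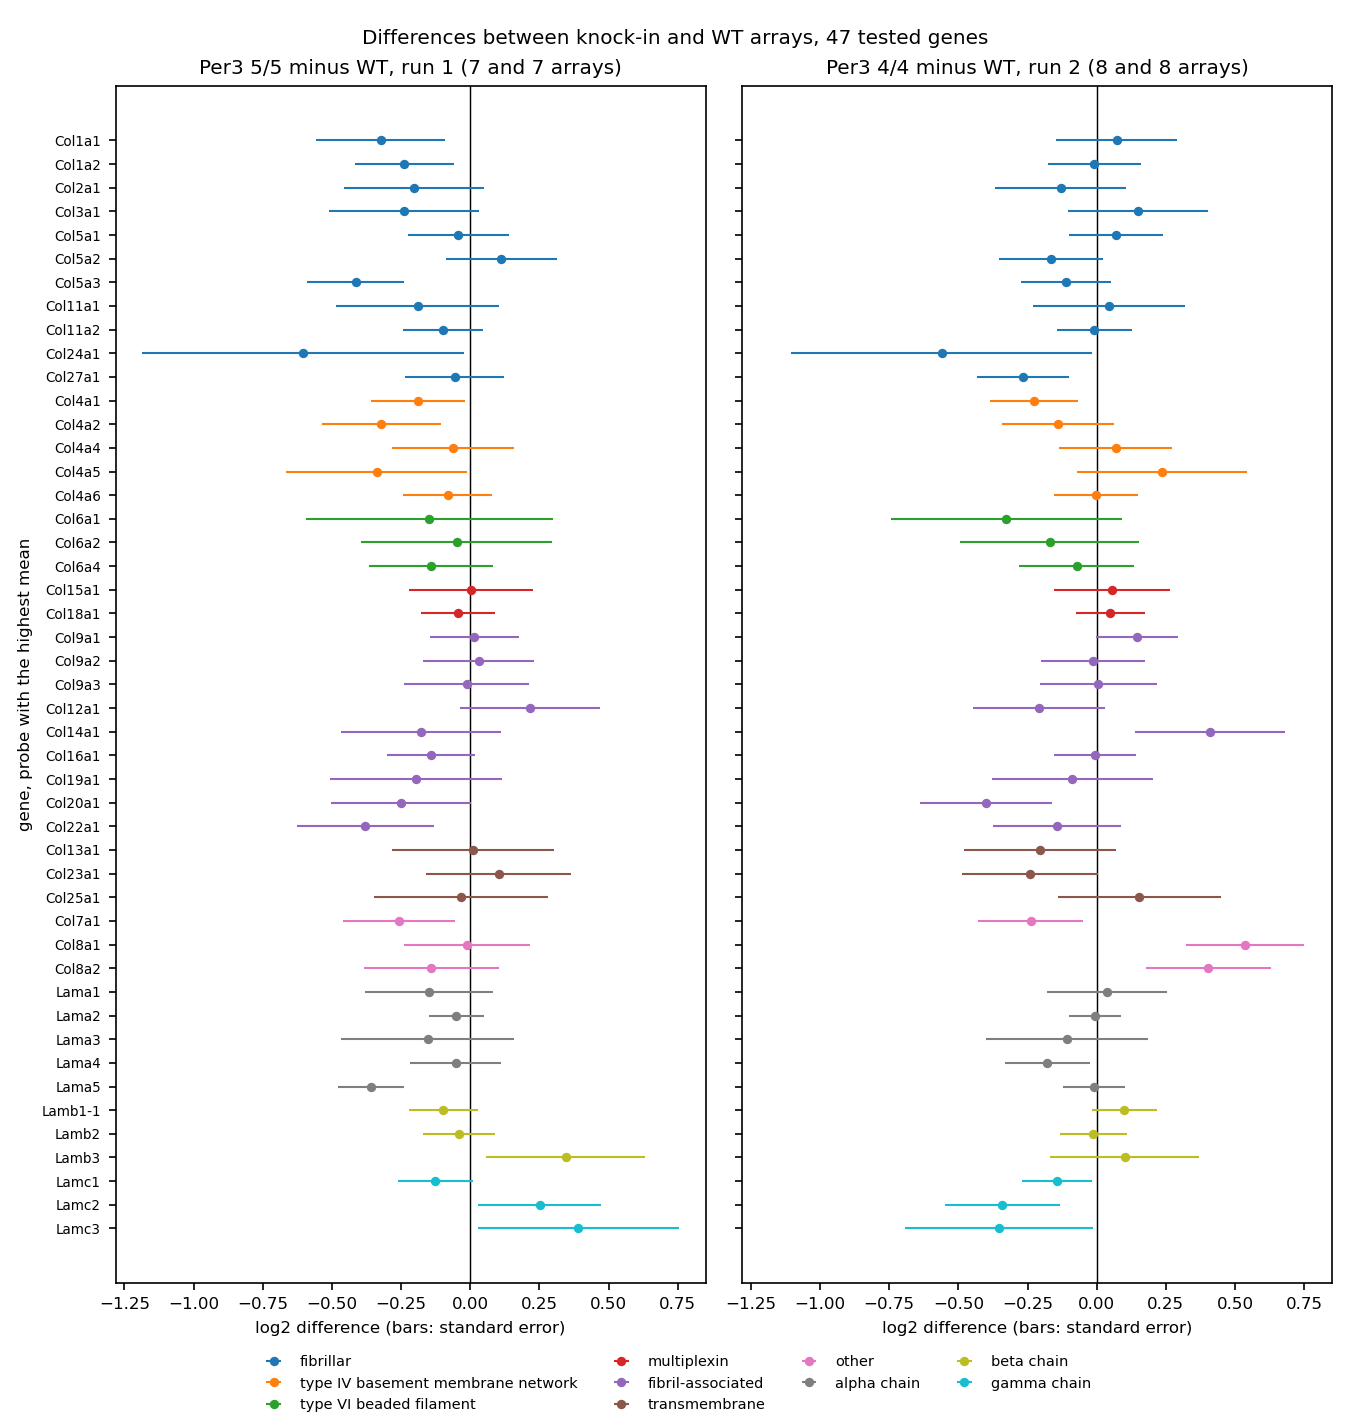
Log2 difference from WT, with its standard error, of the 47 tested genes (the probe with the highest mean for each) in Per3 5/5 (left, 7 and 7 arrays) and Per3 4/4 mice (right, 8 and 8 arrays), coloured by role. Most bars cross or come close to 0, and the widest belong to Col24a1, Col6a1 and Lamc3.

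The 11 fibrillar collagen genes had 19 tested probes. In the Per3 5/5 line 16 of these probes had a negative difference and 3 a positive one (median -0.16), where 54.5% of all probes were lower. In the Per3 4/4 line 13 of 19 were negative (median -0.11), where 48.3% of all probes were lower. None passed in limma in either line, and 1 Col24a1 probe was called in Per3 5/5 mice by the rank product. That probe differed by -0.60 ± 0.58 (SE), with a probability of false prediction of 0.0146 under a threshold of 0.015. Its lowest arrays were WT R1 at -5.65 and Per3 5/5 R3 at -5.49, where the group medians were -2.46 and -2.91. The other tested Col24a1 probe was at 0.16 ± 0.48 (SE), and the probes correlated at -0.07 over the arrays. Col1a1 and Col1a2 encode the chains of type I collagen, and Col3a1 that of type III, the main fibre-forming collagens of soft tissue. Col1a2 lay between 1.63 and 2.48 (median 2.04) on the WT arrays of run 1 and between 1.53 and 2.08 (median 1.75) on the Per3 5/5 arrays. These groups overlapped over most of their range, and the difference was -0.24 ± 0.18 (SE; 0.848-fold; limma, adjusted p = 0.859).

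Col1a1 ranged from -1.94 to -0.80 (median -1.64) in WT and from -2.44 to -1.42 (median -1.77) in Per3 5/5 mice, a difference of -0.32 ± 0.23 (SE; adjusted p = 0.849). Col3a1 ranged from -2.36 to -1.14 (median -2.04) in WT and from -3.05 to -1.54 (median -2.06) in Per3 5/5 mice, a difference of -0.24 ± 0.27 (SE; adjusted p = 0.94). In each of these genes WT R1 was the highest array of run 1. In run 2 the same genes differed by 0.07 ± 0.22 for Col1a1, -0.01 ± 0.17 for Col1a2 and 0.15 ± 0.25 for Col3a1 (Per3 4/4 minus WT ± SE; adjusted p = 1 for each).

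Col1a2 on the WT arrays of run 2 spanned 2.04 to 3.39 (median 2.23), with WT R14 alone above 3, while the Per3 4/4 arrays spanned 1.97 to 3.02 (median 2.35). Col3a1 spanned -2.41 to -0.76 (median -1.73) in WT and -2.38 to -0.69 (median -1.70) in Per3 4/4 mice. The groups covered nearly the same range. Of the minor fibrillar chains that set fibre width, Col5a1 differed by -0.04 ± 0.18 in Per3 5/5 and 0.07 ± 0.17 in Per3 4/4 mice, and Col11a1 by -0.19 ± 0.29 and 0.05 ± 0.27 (differences from WT ± SE). The dimmer tested probe of Col5a1 was at -0.06 ± 0.18 and -0.22 ± 0.17, and that of Col11a1 at 0.13 ± 0.22 and -0.19 ± 0.21 (Per3 5/5 then Per3 4/4).

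Col5a3, a type V chain, had the lowest unadjusted p of the fibrillar genes in Per3 5/5 mice. It lay between -2.83 and -2.10 (median -2.36) in WT and between -3.45 and -2.08 (median -2.73) in Per3 5/5 mice, a difference of -0.41 ± 0.18 (SE; 0.75-fold; unadjusted p = 0.0251, adjusted p = 0.796). The groups overlapped, as Per3 5/5 R1 was above every WT array. Within the 4 slides of run 1, which held both genotypes, the difference was -0.04, -0.76, -1.16 and 0.04, so it was carried by the slides with Per3 5/5 R5 and R3, and it was -0.18 ± 0.19 without R3, R5 and R6 (SE; adjusted p = 1).

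Type IV collagen, the scaffold of the basement membrane, had 7 of 8 tested probes lower in Per3 5/5 and 5 of 8 lower in Per3 4/4 mice. Of all probes, 54.5% and 48.3% were lower. Col4a1 lay between -2.13 and -1.76 (median -1.83) in WT and between -2.23 and -1.83 (median -2.08) in Per3 5/5 mice, a difference of -0.19 ± 0.17 (SE; adjusted p = 0.903). In run 2 it lay between -1.20 and -0.12 (median -0.80) in WT and between -1.68 and -0.37 (median -0.83) in Per3 4/4 mice, a difference of -0.23 ± 0.16 (SE; adjusted p = 1). The groups overlapped in both runs. A second Col4a1 probe was among the members with the smallest p in Per3 4/4 mice, at -0.31 ± 0.18 (SE; unadjusted p = 0.0928, adjusted p = 1), with differences of -0.44, -0.51, -0.05 and -0.24 within the slides. It was -0.20 without Per3 4/4 R5, -0.20 without WT R14, and -0.47 without Per3 4/4 R6 and R7.

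Col4a2 encodes the partner chain. It lay between -1.31 and -0.09 (median -1.11) in WT and between -1.67 and -0.89 (median -1.32) in Per3 5/5 mice, a difference of -0.32 ± 0.22 (SE; adjusted p = 0.832), and its second probe went the other way, at 0.19 ± 0.25 (SE). Among the WT arrays of run 1, R6 was at -0.09 and the next at -1.08. In Per3 4/4 mice the difference was -0.14 ± 0.20 (SE; adjusted p = 1). The Per3 4/4 arrays spanned -1.33 to 0.25 and the WT arrays -1.27 to 0.11, so neither group stood clear of the other.

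**Figure D2:**
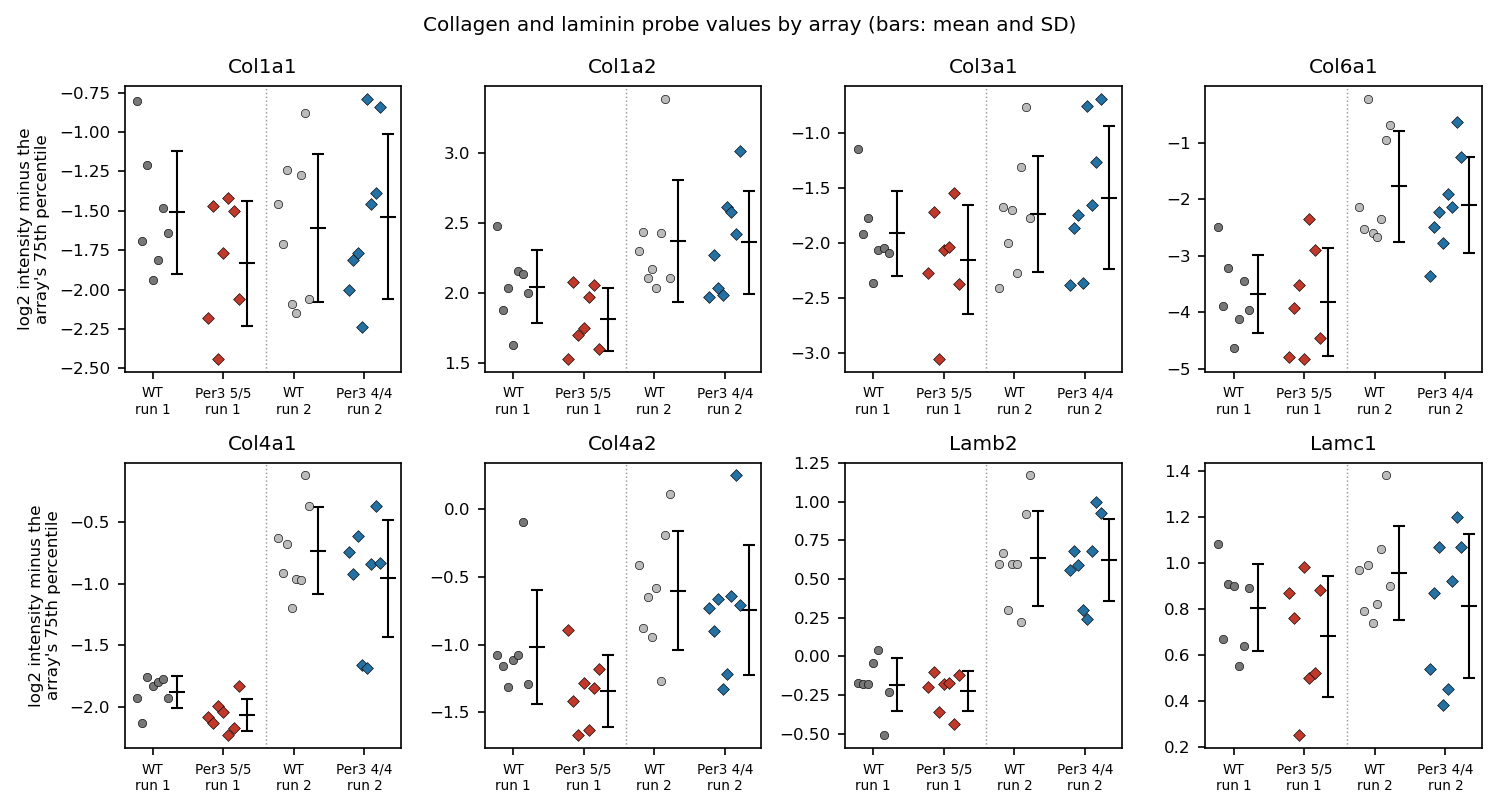
Log2 intensity minus the 75th percentile of the array for 8 genes, 1 point an array, with the mean and SD of each group; the dotted line separates the runs, between which levels are not comparable. In each panel the knock-in points overlap the WT points of the same run, with Per3 5/5 R3 lowest in Col1a1 and Col3a1 and WT R14 highest in Col1a2.

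Type VI collagen, which forms beaded filaments at the edge of basement membranes, had all 4 tested member probes lower in both knock-in lines, none past the test. Of all probes, 54.5% were lower in Per3 5/5 and 48.3% in Per3 4/4 mice. The tested probe of Col6a3, which was no member by its name, was at -0.37 ± 0.23 in Per3 5/5 and higher, at 0.32 ± 0.22, in Per3 4/4 mice (differences from WT ± SE). Its genes varied widely between mice of 1 group. Col6a1 spanned -4.62 to -2.49 (median -3.88) in WT and -4.82 to -2.35 (median -3.92) in Per3 5/5 mice, and the difference was -0.15 ± 0.45 (SE; adjusted p = 0.997). In run 2 it spanned -2.66 to -0.23 (median -2.24) in WT and -3.35 to -0.64 (median -2.18) in Per3 4/4 mice, a difference of -0.33 ± 0.42 (SE; adjusted p = 1). Its pooled SD within groups, 0.88, was the second highest among the 47 genes, after Col24a1 (1.15). Lamc3 (0.71), Col6a2 (0.68) and Col4a5 (0.64) followed. Col24a1, Lamc3 and Col4a5 were dim. Col24a1 was well above background on all arrays of run 1 but on 1 array of each genotype in run 2, and Lamc3 on 4 of 7 WT and 6 of 7 Per3 5/5 arrays of run 1 and on 5 of 8 WT and 6 of 8 Per3 4/4 arrays of run 2.

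Col8a1 encodes a short-chain, network-forming collagen of vessels and of the corneal endothelium. It held both unadjusted calls in Per3 4/4 mice. The brighter probe lay between -0.59 and 1.32 (median 0.36) in WT and between 0.12 and 1.48 (median 0.97) in Per3 4/4 mice, a difference of 0.53 ± 0.21 (SE; 1.45-fold; unadjusted p = 0.018, adjusted p = 1). The groups overlapped, and within the 4 slides the difference ran from 0 to 1.16. The dimmer probe gave 0.68 ± 0.31 (SE; unadjusted p = 0.0364, adjusted p = 1). Col8a2, its partner, was at 0.40 ± 0.23 (SE; unadjusted p = 0.0859, adjusted p = 1), with slide differences of -0.04, 0, 0.64 and 1.02. Col8a2 fell to 0.23 without WT R10, to 0.25 without WT R8 and to 0.15 with array weights.

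Without Per3 4/4 R6 and R7 the Col8a1 differences were 0.71 ± 0.22 and 0.85 ± 0.33 (SE; adjusted p = 0.79 for each). With array weights they were 0.33 ± 0.23 and 0.26 ± 0.30, and with the normexp background correction the dimmer probe was at 0.14 ± 0.16 (SE; adjusted p = 1 for each). In Per3 5/5 mice the brighter probe was at -0.01 ± 0.23 while the dimmer was at 0.62 ± 0.33 (unadjusted p = 0.0696, adjusted p = 0.796) and at 0.11 ± 0.36 without R3, R5 and R6. The 2 probes varied together over the 30 arrays with a Pearson correlation of 0.64. Choroid plexus epithelium is the secretory lining of the ventricles. The 17 tested probes of its markers had a median difference of 0.79 in Per3 4/4 mice, with 0 past the test. In Per3 5/5 mice the median was -0.74, again with 0 past the test, while the Col8a1 probes were at -0.01 and 0.62. The mean level of the markers spanned -3.67 to 0.34 on WT and -3.03 to 0.41 on Per3 4/4 arrays of run 2. In run 1 it spanned -1.71 to -0.57 on WT and -3.37 to -0.90 on Per3 5/5 arrays. The part of this tissue in the Col8a1 difference was not tested.

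None of the remaining collagens passed the test. Among their wider differences, picked after the values were seen, was that of Col24a1 (-0.60 ± 0.58 in Per3 5/5 and -0.56 ± 0.54 in Per3 4/4 mice). Others were those of a Col23a1 probe (0.46 ± 0.42 in Per3 5/5), Col14a1 (0.41 ± 0.27 in Per3 4/4), Col20a1 (-0.40 ± 0.24 in Per3 4/4) and Col22a1 (-0.38 ± 0.25 in Per3 5/5), each with its SE. The multiplexins, basement membrane collagens of which Col18a1 is the source of endostatin, differed by 0.00 ± 0.22 for Col15a1 and -0.04 ± 0.13 for Col18a1 in Per3 5/5 mice and by 0.06 ± 0.21 and 0.05 ± 0.13 in Per3 4/4 mice (SE). Of the 11 tested probes of collagens that decorate fibrils, 7 were lower in each line, where 54.5% (Per3 5/5) and 48.3% (Per3 4/4) of all probes were. Col9a3 differed by -0.01 ± 0.23 and 0.01 ± 0.21, Col12a1 by 0.22 ± 0.25 and -0.21 ± 0.24, and Col19a1 by -0.20 ± 0.31 and -0.09 ± 0.29 (Per3 5/5 then Per3 4/4; SE). A dim Col16a1 probe was among the 5 smallest p in Per3 5/5 mice, at -0.42 ± 0.27 (SE; unadjusted p = 0.127, adjusted p = 0.819). It was carried by the slide of Per3 5/5 R3, with a difference of -1.78 there and of -0.17 to -0.21 in the others. It was -0.23 without R3 alone and turned to 0.06 without R3, R5 and R6. Among transmembrane collagens 7 of 8 probes were higher in Per3 5/5 mice, where 54.5% of all probes were lower, and 4 of 8 in Per3 4/4 mice. These probes came from 3 genes, and probes of 1 gene were not independent (Pearson up to 0.93, in Col25a1). Col25a1, a neuronal collagen, differed by -0.03 ± 0.31 in Per3 5/5 and 0.15 ± 0.29 in Per3 4/4 mice (SE).

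Lama5 had the smallest p of all members. It encodes the laminin alpha chain of mature vascular and epithelial basement membranes. The array held 1 Lama5 probe, so no second probe could be set beside it. Its annotated alignment covers only 15 bases, fewer than the probe itself. Lama5 lay between -1.95 and -1.52 (median -1.68) in WT and between -2.39 and -1.75 (median -2.06) in Per3 5/5 mice, a difference of -0.36 ± 0.12 (SE; 0.781-fold; unadjusted p = 0.00556, adjusted p = 0.796). The groups overlapped: Per3 5/5 R1, R4 and R7 lay within the WT range and the other 4 below it. The difference had the same sign within each slide (-0.49, -0.42, -0.49 and -0.13), and without R3, R5 and R6 it was -0.18 ± 0.13 (SE; adjusted p = 1).

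In Per3 4/4 mice the Lama5 difference was -0.01 ± 0.11 (SE; adjusted p = 1), with arrays between -2.69 and -2.22 against -2.63 to -1.94 in WT. The difference between the 2 effects was -0.35 ± 0.16 (SE; unadjusted p = 0.0422, adjusted p = 1). Endothelial markers had a median difference of -0.13 over their 21 tested probes in Per3 5/5 mice, with 0 past the test, and Lama5 correlated with their mean at 0.44 over the 30 arrays. Its relation to the Lama5 difference was not tested.

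None of the other laminins passed limma's test. Lamc1, the common gamma chain, ranged from 0.55 to 1.08 (median 0.89) in WT and from 0.25 to 0.98 (median 0.76) in Per3 5/5 mice, a difference of -0.13 ± 0.14 (SE; adjusted p = 0.93), and differed by -0.14 ± 0.13 in Per3 4/4 mice (SE; adjusted p = 1). Lamb2 differed by -0.04 ± 0.13 and -0.01 ± 0.12, and Lamb1-1, the array's name for the beta 1 chain, by -0.10 ± 0.12 and 0.10 ± 0.12 (Per3 5/5 then Per3 4/4; SE). Lama2, whose loss causes a muscular dystrophy, was the steadiest of those named, with an SD of 0.17 and differences of -0.05 ± 0.10 and -0.01 ± 0.09. Lama1 differed by -0.15 ± 0.23 and 0.04 ± 0.22, and Lamc3 by 0.39 ± 0.36 and -0.35 ± 0.34.

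Lama4, the alpha chain of endothelial basement membrane, had 4 tested probes. All but 1 of them correlated with each other at 0.45 to 0.88 over the arrays. The remaining probe, at -0.86 below, correlated with them at -0.27 to -0.07. The brightest differed by -0.05 ± 0.16 in Per3 5/5 mice, while another, among the 5 smallest p and called by the rank product, differed by -0.86 ± 0.54 (SE; unadjusted p = 0.121, adjusted p = 0.815). That probe was well above background on 6 of 7 arrays of each genotype, its slide differences ran from -3.30 to 1.89, and its correlation with the brightest probe was -0.10. In run 2 it was well above background on 2 Per3 4/4 arrays and on 0 WT arrays. Its difference was -0.50 without R3 alone, -0.56 without WT R6 and -0.04 ± 0.57 without R3, R5 and R6 and turned to 0.20 ± 0.44 with array weights. Lama3 had 2 probes, of which 1 was among the 5 smallest p in Per3 4/4 mice, at -0.39 ± 0.20 (SE; unadjusted p = 0.0644, adjusted p = 1), and the other was at -0.11 ± 0.29. With array weights the former was at -0.10 ± 0.17.

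Of the genes that make, bind or break down this matrix, none passed the test in either line. Basement membrane partners such as nidogens and perlecan had 0 of 20 tested probes called, with the smallest p for Frem2 in Per3 5/5 (-0.41 ± 0.21) and Sparc in Per3 4/4 mice (0.39 ± 0.21). Genes of collagen synthesis and cross-linking had 0 of 32, led by Loxl3 (-0.36 ± 0.12; unadjusted p = 0.00388, adjusted p = 0.796) and Plod1 (0.65 ± 0.23; unadjusted p = 0.00875, adjusted p = 1). Loxl3 is a lysyl oxidase-like cross-linking enzyme and Plod1 a lysyl hydroxylase. Receptors had 0 of 25, led in both by the collagen-binding integrin chain Itga1 (-0.88 ± 0.39 in Per3 5/5 and 0.48 ± 0.31 in Per3 4/4 mice). The Itga1 probe was picked separately in each line, so these values need not be of the same probe and show no reversal. Matrix proteases and their inhibitors had 0 of 12, led by Mmp9 (0.57 ± 0.22) and Timp2 (0.23 ± 0.14). All are log2 differences from WT with the SE.

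Variation between mice of 1 group was described by removing the group mean (genotype within run) from each gene. The mean deviation of Col1a1, Col1a2 and Col3a1 followed that of 16 meningeal fibroblast markers, none of them a collagen, with a Pearson correlation of 0.80 and a Spearman correlation of 0.85 over 30 arrays. Within the groups it was 0.94 in WT and 0.67 in Per3 5/5 mice of run 1, and 0.74 in WT and 0.87 in Per3 4/4 mice of run 2. It was 0.81 without the 2 arrays farthest from the median of the meningeal markers, 0.78 to 0.81 with any 1 array left out, 0.80 without WT R14, 0.84 without Per3 5/5 R3, R5 and R6, and 0.76 with the mean of each slide removed. With the tested probes of a gene averaged, the correlation was 0.74 (Spearman 0.79). The arrays share the tissue block from which both sets of RNA came.

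On the log2 scale the mean deviation of these collagens ran from -0.62 in Per3 4/4 R4 to 0.91 in WT R14, and that of the meningeal markers from -1.20 in Per3 4/4 R1 to 0.84 in Per3 5/5 R5. The level of the meningeal markers spanned -1.19 to -0.25 on WT and -1.43 to 0.08 on Per3 5/5 arrays of run 1, and -0.98 to 0.26 on WT and -1.42 to 0.62 on Per3 4/4 arrays of run 2. None of their 24 tested probes passed the test between genotypes, and the median differences were -0.02 and 0.17.

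**Figure D3:**
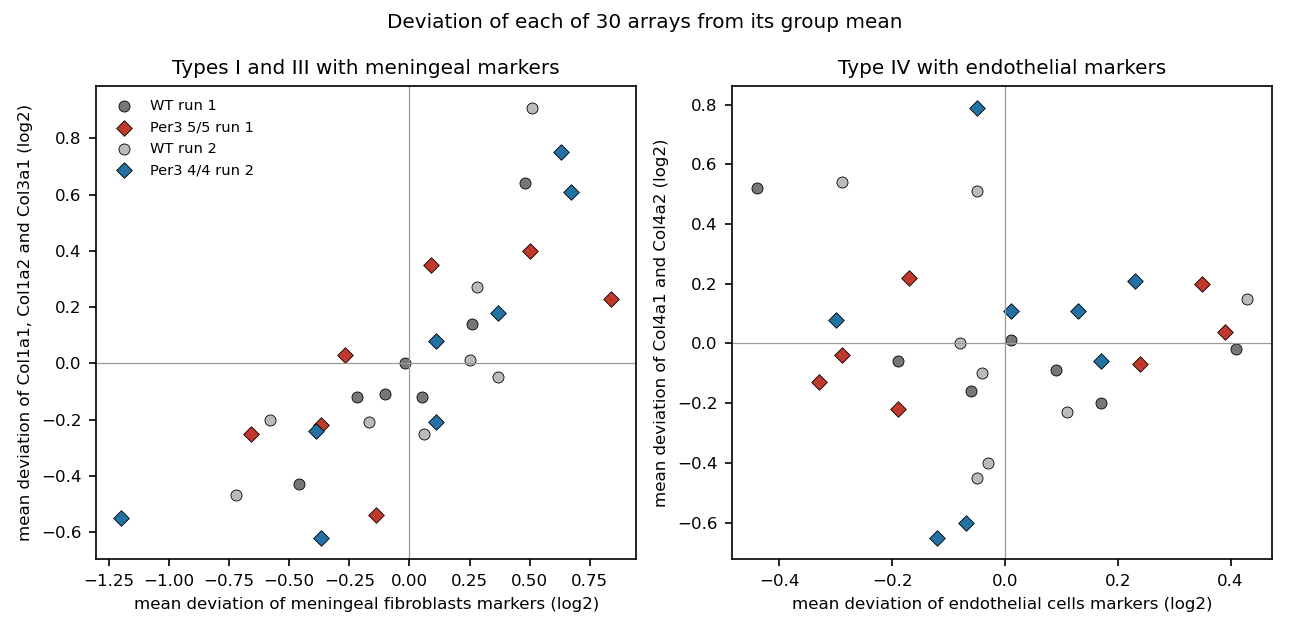
Mean deviation from the group mean (log2) of Col1a1, Col1a2 and Col3a1 against that of meningeal fibroblast markers (left), and of Col4a1 and Col4a2 against that of endothelial markers (right), 1 point an array. The points rise together on the left (Pearson 0.80) but not on the right (Pearson -0.06, or 0.28 with slide means removed, which is not drawn).

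Not all fibrillar collagens shared this. The mean of all 11 fibrillar genes, the comparison planned beforehand, correlated with the meningeal markers at only 0.10 (Spearman 0.09), with -0.15 in run 1 and 0.29 in run 2. It includes Col24a1, which had the largest SD of the members (1.15) and correlated with the meningeal markers at -0.425. In run 2 that probe was well above background on 1 array of each genotype. Its part in the low value was not tested. Over the 47 member genes, 9 had a correlation above 0.5 with the meningeal markers, where 1.51% of all tested probes did. Col3a1 (0.77), Col6a1 (0.76), Col1a1 (0.76), Col1a2 (0.70), Col5a1 (0.67) and Col12a1 (0.65) came first, and Lama4 (0.59), Col6a2 (0.56) and Col23a1 (0.54) followed. Col5a3 and Col11a2, also fibrillar, were lowest, both at -0.48. For the 9 genes the lowest correlation in any 1 group was 0.25, for Col23a1.

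For the basement membrane genes and vessel markers the values were lower. The mean of Col4a1 and Col4a2 correlated at -0.06 (Spearman 0.04) with 17 endothelial markers and at -0.07 with the meningeal markers. With slide means removed the former turned to 0.28 (Spearman 0.23). With the laminin chains Lama4, Lama5, Lamb1-1, Lamb2 and Lamc1 added, the correlation with the endothelial markers was 0.12 (Spearman 0.10), ranging from -0.40 in WT to 0.87 in Per3 5/5 mice of run 1. No member gene reached 0.5 with the endothelial markers, where 3.88% of all tested probes did, and the highest was Lama5 at 0.44. With pericyte and smooth muscle markers none did either (2.1% of all probes), and the highest was Lama3 at 0.45.

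Other marker lists were followed by single members. Choroid plexus markers correlated with Col8a1 at 0.72 (0.62 to 0.92 within the groups), with Col18a1 at 0.62 and with Col9a3 at 0.51, where 0.675% of all probes passed 0.5. The last 2 were not steady, with a lowest value in any 1 group of -0.59 for Col18a1 and -0.27 for Col9a3. Lamb3, a chain of the laminin of skin, followed the markers of hypothalamic neurons at 0.79, between 0.84 and 0.94 within the groups. For that list 8.46% of all probes passed 0.5.

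Col11a2 followed oligodendrocyte markers at 0.71 (3.83% of all probes passed 0.5) and red blood cell genes at 0.69, whereas Col23a1, a transmembrane collagen, ran against oligodendrocyte markers at -0.75. Col22a1 ran against the hypothalamic markers at -0.77, but from -0.98 to 0.62 within the groups. Col13a1 correlated with anterior pituitary markers at 0.76, which fell to 0.32 without WT R14 and WT R12; WT R14 held its highest value, -0.48, against a group median of -2.82. These are the extremes of 517 correlations, 47 genes with 11 lists, and are a description.

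**Figure D4:**
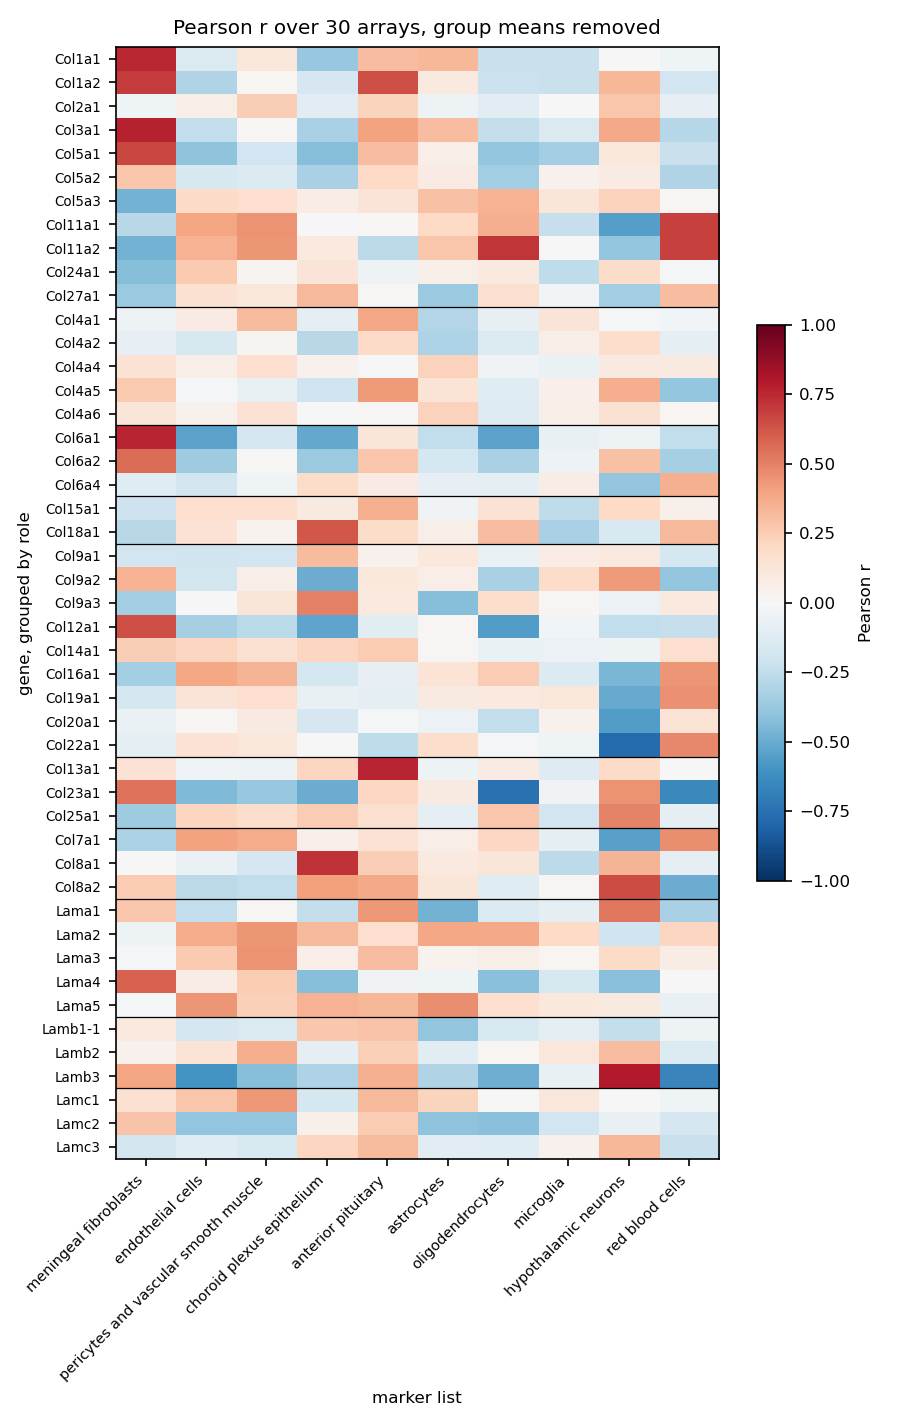
Pearson correlation over 30 arrays, group means removed, of each of 47 genes (rows, grouped by role) with the mean of 10 cell type marker lists (columns). Col1a1, Col1a2, Col3a1, Col5a1, Col6a1 and Col12a1 are red with meningeal fibroblasts, while no gene is deep red with endothelial cells.

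**Figure D5:**
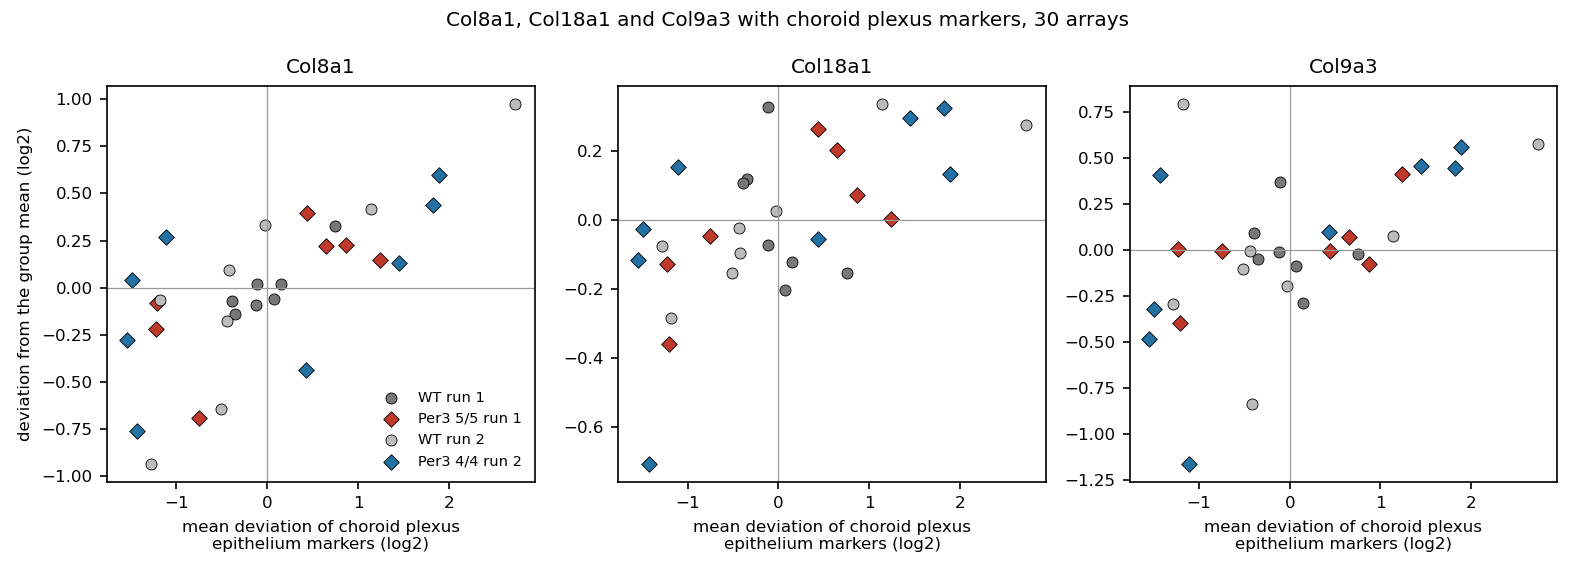
Deviation from the group mean (log2) of Col8a1, Col18a1 and Col9a3 against the mean deviation of choroid plexus epithelium markers, 1 point an array. Col8a1 rises along the axis (Pearson 0.72), and the low Col18a1 point is Per3 4/4 R7 at a level of -0.92.

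Pairs of chains that can assemble into 1 molecule ran from 0.02 to 0.80 among those examined. Col1a1 and Col1a2 correlated at 0.80, Col6a1 and Col6a2 at 0.75, Col4a1 and Col4a2 at 0.71, Col8a1 and Col8a2 at 0.66, and Col11a1 and Col11a2 at 0.63. Col5a1 and Col5a2 stood at 0.50, Col9a1 and Col9a3 at 0.39, and Col9a2 and Col9a3 at 0.02. Within single groups the lowest value was -0.21 for Col8a1 with Col8a2 and 0.27 for Col4a1 with Col4a2. Col4a4 and Col4a6 had the highest value of all pairs, 0.91, with 0.86 to 0.99 within the groups. The annotated alignment of the Col4a4 probe covers only 29 bases, fewer than the probe itself. The Col4a6 probe used here correlated at only 0.23 with the other tested Col4a6 probe. Col1a1 and Col3a1, chains of different molecules that are known to share fibrils, stood at 0.83. Among the laminins, Lamc1 correlated with Lama5 at 0.51, Lamb2 at 0.47, Lama4 at 0.43 and Lama2 at 0.37. As a whole the members were no more correlated than other probes at the top of the scale: 16 of 1081 gene pairs (1.48%) passed 0.7, where 1.57% of all probe pairs did, and the median was 0.10 against 0.02.

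The promoters of Col1a2 and Col3a1 are shown because these genes varied together at 0.81 and yet differ in sequence. Both are the 250 bases before the RefSeq start site in GRCm38.p6, read on the plus strand, with motifs in capitals. The motifs searched, on both strands, were the CCAAT box, the GC box core GGGCGG and the TATA box core TATAAA. No motif overlaps another here.
Col1a2, chr6:4505368-4505617: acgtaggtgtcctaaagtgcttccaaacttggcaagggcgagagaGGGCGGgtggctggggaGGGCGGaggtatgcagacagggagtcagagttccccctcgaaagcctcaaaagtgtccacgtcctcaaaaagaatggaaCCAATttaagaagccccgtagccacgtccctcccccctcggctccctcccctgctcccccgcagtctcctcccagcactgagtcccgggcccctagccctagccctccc
Col3a1, chr1:45311288-45311537: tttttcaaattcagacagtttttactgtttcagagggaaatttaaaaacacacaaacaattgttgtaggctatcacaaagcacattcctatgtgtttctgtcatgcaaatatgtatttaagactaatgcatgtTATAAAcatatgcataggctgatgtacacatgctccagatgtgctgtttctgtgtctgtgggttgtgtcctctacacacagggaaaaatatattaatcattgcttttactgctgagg
The Col1a2 window is 62% G and C, with 1 CCAAT and 2 GGGCGG, and the Col3a1 window is 35.2%, with 1 TATAAA. Of all 32851 promoters in the table, 33.8% hold CCAAT, 32.7% GGGCGG and 12.4% TATAAA in a window of this length. Of 44 member promoters, from 40 genes, 31.8%, 54.5% and 11.4% do. Col4a1 and Col4a2, which varied together at 0.71, lie head to head on chromosome 8, with RefSeq start sites 21 bases apart (11312826 on the minus and 11312805 on the plus strand).

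Outside the family, the 12 tested probes most correlated with the mean of Col1a1, Col1a2 and Col3a1 were those of Gstm2 (0.86), Lypd2 (0.83), Asgr1, Aldh1a2, Htra3, Anpep, Dapl1, Igf2, 2200002D01Rik, Antxr2, Mrgprf and Tnfsf12-Tnfsf13 (0.78). Their lowest value within any 1 group was 0.56, for Htra3. Aldh1a2, a retinoic acid-making enzyme, and Igf2, a growth factor, were also on the meningeal list, and Anpep on the pericyte list. The probes most correlated with the mean of Col4a1 and Col4a2 were those of Prr14 (0.90), Pdlim7 (2 probes, 0.90 and 0.86), Ssh3, Arid3b, ENSMUST00000084200, Celsr3, Arhgef1, Zbtb48, Scarb1, Pmm2 and Rnf40 (0.84). None of these is on a vessel marker list.

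Correlation with the Col4a1 and Col4a2 mean moved with the base composition of the probe. Over all tested probes its median was -0.17 for probes of up to 36.7% G and C, -0.02 from 38.3 to 41.7%, 0.07 from 43.3 to 45% and 0.31 from 46.7% upwards. For the mean of Col1a1, Col1a2 and Col3a1 the same medians were 0.03, -0.01, -0.03 and -0.04. Tested member probes had a median of 45% G and C, against 41.7% over all tested probes. The part of base composition in the covariation of the type IV genes was not tested.

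Different probes of 1 gene did not always tell the same story. Over the 32 pairs of tested probes in 23 genes, the median correlation between arrays was 0.35, and 5 pairs were below 0. It was 0.62 where the dimmer probe was above a level of -4.76, the median of the dimmer probes, and 0.34 where it was below. The pairs ran from 0.93 for Col25a1 to -0.27 for Lama4. Both probes of Col4a1 (0.82) varied closely together, and those of Col1a1 (0.35) and Col18a1 (0.07) less so. In 20 of the 32 pairs both probes differed from WT in the same direction in Per3 5/5 mice, and in 19 of 32 in Per3 4/4 mice.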

How the data were processed

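Hypothalamus RNA was labelled with Cy3 and hybridised to 30 1-colour Agilent mouse arrays, 4 to a slide. Per the labels and methods, the authors scanned the arrays and scaled them by a shift to the 75th percentile. The methods state that samples of a Per3 5/5 and a WT mouse were excluded for quality. The deposited scanner files hold a processed intensity, background-subtracted within the array, and the authors also deposited a table of log2 values, centred per probe within a run, which served as an alternative. In that table all 16 arrays of run 2 matched the scanner file of their own number and 1 of the 14 of run 1 did. The other 13 matched another array of the same genotype, so group comparisons stand, but a replicate number of run 1 names a scanner file only.

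Control and outlier spots were left out, spots of a probe averaged, and log2 intensity minus the array's 75th percentile computed. limma 3.58.1 in R 4.3.3 fitted genotype and run over all 30 arrays, with Benjamini-Hochberg adjustment over 29947 probes. Every column used belonged to 1 sample. Each of the 30 arrays was taken as 1 mouse, so p-values are meant to measure the spread between mice. If a WT mouse was used in both runs, the correlations over 30 arrays would not rest on independent mice. The same holds for the difference between the knock-in effects. Arrays of run 1 with the same scanner file number correlated between -0.28 and 0.40. As most of these numbers differ from those of the authors' table, this cannot show whether the arrays were paired. Covariation used, for each gene, its tested probe with the highest mean. Python 3.11.15, numpy 2.4.6, pandas 2.3.3 and scipy 1.17.1 did the rest. The code was tested on simulated data.

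Named were a set list of 26 genes, the 5 smallest unadjusted p in each comparison, the 5 largest SDs and the 12 probes most like each of the 2 collagen means; single extremes of correlation were named after their values were seen. The members and lists were chosen with earlier results of these data known. Alternatives covered scaling, background correction, filters, outlier spots, samples, slide and replicate blocks, weights, variance, the methods' t-test and rank product, and each array left out; the ones without Per3 5/5 R3, R5 and R6, without dim arrays and with slide means removed were chosen after seeing the data. The number of arrays limits the precision.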

Additional observations from a re-analysis of the deposited data

Results flagged for a closer look

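Single arrays lay far from the rest of their group in 11 of 120 groups examined, 4 for each of 30 genes; chance alone marks about 1 in 20. Each value is a log2 level, and the difference of that array from the others is the only reason for listing it. Per3 5/5 R3 was low in Col11a1 (-2.81; next -1.88) and in Lama3 (-3.85; next -2.94). Per3 4/4 R7 was low in Col18a1 (-0.92; next -0.33) and high in Col4a2 (0.25; next -0.64). WT R14, the array with high pituitary markers, was high in Col1a2 (3.39; next 2.44). WT R10, the array with low hypothalamic markers, was low in Col5a3 (-3.66; next -3.16) and high in Lama4 (-1.15; next -1.98). In WT mice of run 1, R1 was low in Col25a1 (-2.02; next -0.98), R6 high in Col4a2 (-0.09; next -1.08) and R3 high in Col8a1 (0.93; next 0.62). Per3 4/4 R1 was high in Col24a1 (-5.09; next -6.91), a probe that was well above background on 1 Per3 4/4 array.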

How the results depend on the processing

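No member was called by limma or the methods' t-test in either comparison with WT under any alternative run; at an unadjusted p under 0.05 the counts ran from 0 without Per3 5/5 R3, R5 and R6 (0.905% of all probes) to 8 with slide as a fixed block (18.8%) in Per3 5/5, and from 0 to 5 in Per3 4/4 mice, the latter without Per3 4/4 R6 and R7 (6.03%). The methods' t-test gave 6 and 0 members unadjusted, where 10.4% and 0.985% of all probes passed, and 0 and 0 after Benjamini-Hochberg adjustment. The rank product, at the threshold of the methods, called 2 member probes in Per3 5/5 mice, among 341 of 29817 probes (1.14%). They were 1 Col24a1 probe and the Lama4 probe at -0.86. In Per3 4/4 mice the rank product called 0 members (46 probes, 0.154%). With the replicate number of the scanner file as a block in run 1, 0 members were called and 6 passed unadjusted (11.6% of all probes). The median difference was -0.06. This block changed no call, but it cannot speak for a pairing under the numbers of the authors' table. No block could be fitted in run 2, whose groups share 1 number. The same Lama4 probe turned to 0.20 with array weights, which also brought Lama5 to -0.21, Col5a3 to -0.25, Col16a1 to -0.21 and the dimmer Col8a1 probe to 0.18 in Per3 5/5 mice, and the second Col4a1 probe to -0.11 in Per3 4/4 mice. The normexp background brought the dimmer Col8a1 probe to 0.21, Lama4 to -0.47 and Col16a1 to -0.23 in Per3 5/5 and Lama3 to -0.17 in Per3 4/4 mice. Without Per3 5/5 R3, R5 and R6 the dim Col16a1 probe turned to 0.06 and the members' median to 0.03, and 20 of 74 member differences changed sign; in Per3 4/4 mice up to 21 did, with array weights. Fibrillar collagens with meningeal markers gave -0.15 in run 1 and 0.29 in run 2; basement membrane genes with endothelial markers gave 0.43 in run 1 and 0.37 with slide means removed; the cause was not tested. With each array left out, these correlations ran from -0.02 to 0.22 and from 0.06 to 0.18, the median differences from -0.09 to -0.03 in Per3 5/5 and from -0.11 to 0.00 in Per3 4/4 mice, and the counts stayed at 0. Probes near background set a limit on the dim members.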

Other observations

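Col6a3, a main chain of type VI collagen, could be found only by probe description. Of its 3 probes 1 was tested, at -0.37 ± 0.23 in Per3 5/5 (unadjusted p = 0.123, adjusted p = 0.816) and 0.32 ± 0.22 in Per3 4/4 mice (unadjusted p = 0.146, adjusted p = 1; log2 differences from WT with SE, limma). Its correlation with the meningeal markers over 30 arrays was -0.10, while Col6a1 was at 0.76 and Col6a2 at 0.56.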
